A study of Mus musculus with 16 samples.

Results

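The genes described here flank Nfe2l2, the gene for the transcription factor NRF2 and the one disrupted in the knockout, on mouse chromosome 2. They are the protein-coding genes whose start lies within 15 Mb of the start of Nfe2l2, without Nfe2l2 itself, and whose raw counts sum to at least 160 over all libraries. By this rule 97 genes were taken, of 57132 in the deposited table and of 395 protein-coding genes of the window found in it. The other 298 fell below the count limit, 246 of them with a summed count of 0, and the window holds 227 genes with olfactory receptor names, 216 of them at 0. Of the 97 genes, 53 lie on the side of lower coordinates and 44 on the side of higher coordinates, 44 start within 5 Mb of Nfe2l2, 41 at 5 to 10 Mb and 12 at 10 to 15 Mb. Distances are those of the annotation of mouse build GRCm38, since no annotation of the build named by the submitters, GRCm39, was used here.

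RNA of whole bone marrow was sequenced from Nrf2-/- mice (KO) and C57BL/6 wild type mice (WT), 2 libraries for each of 4 treatments per genotype, or 16 libraries in all. The treatments compared were BMX-001, which the labels call a radioprotector, the chemotherapy drug 5-fluorouracil (5-FU), both drugs, and PBS as the control. BMX-001 was dosed at 0.5 mg/kg, beginning 24 h ahead of 5-FU and repeated at intervals of 3 days. 5-FU was dosed at 20 mg/kg and again on day 7, and marrow was collected on day 10. KO mice were bred from male and female heterozygous Nrf2+/- mice bought from a supplier, carry a mutant, inactive form of the gene, and have no age or sex in the labels. WT mice were bought males of 8 to 10 weeks, and the labels do not call them littermates of the KO mice. Neither the strain of the embryonic stem cells in which the allele was made nor the number of backcrosses is given in the labels. They also do not say whether the 2 libraries of a group come from separate animals, so that p-values measure the spread between these libraries, which may be technical.

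Genes next to a targeted locus are inherited together with it. An allele made in embryonic stem cells of one strain and crossed into another keeps a stretch of the donor's chromosome around the target, and genes in that stretch can differ between knockout and wild type mice through their own sequence. Neighbours can also differ through a change in the transcription of the locus itself, or through regulation by the missing factor, which binds antioxidant response elements. These libraries hold expression values only, in which such differences cannot be told apart.

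The table of counts had totals of 27305707 to 36588168 in the 8 KO libraries and 34387432 to 39909188 in the 8 WT libraries. Nfe2l2 itself lay between 6.48 and 16.7 CPM (counts scaled to a common library size), with a median of 7.93 CPM, in KO, and between 102 and 122 CPM, with a median of 117 CPM, in WT. KO BMX-001 replicate 1 stood apart on the first principal component of all genes, at 111.9 against -31.0 to 7.6 for the other libraries, and held the lowest summed levels of granulocyte precursor, monocyte and megakaryocyte markers. Counts, and the genotype differences of the called genes, are therefore given with all 16 libraries and with the 15 libraries left without it. In the 15 libraries the KO BMX-001 group holds 1 library, so that its own spread cannot be measured there. A value given once is that of all 16 libraries unless 15 are named. Marrow was recognisable in every library by its erythroid markers, which summed to between 40627 and 65327 CPM in KO and between 32753 and 64479 CPM in WT. Xist, which is transcribed in females, lay between 0.0576 and 0.240 CPM in KO and between 0.0272 and 0.283 CPM in WT. The Y-linked gene Ddx3y lay between 39.7 and 67.8 CPM in KO and between 41.1 and 57.8 CPM in WT. Fewer cells of a type and less RNA per cell cannot be told apart in such bulk samples.

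The promoters of Nfe2l2, Hnrnpa3, Ttn and Mettl8 are shown because antioxidant response elements are looked for in promoters. Hnrnpa3 is the nearest of the 97 genes by its start. Ttn and Mettl8 are 2 flanking genes that differed between the genotypes without the deviating library. Each run is the 250 bases before the gene's start from RefSeq on GRCm38.p6, read in the direction of the gene. Capitals mark the antioxidant response element core TGACNNNGC, the core of the element that NRF2 binds with a small MAF partner, searched on both strands. The windows are chr2:75704664-75704913 on the minus strand for Nfe2l2, chr2:75659009-75659258 on the plus strand for Hnrnpa3, chr2:76982548-76982797 on the minus strand for Ttn and chr2:71055607-71055856 on the minus strand for Mettl8.
Nfe2l2: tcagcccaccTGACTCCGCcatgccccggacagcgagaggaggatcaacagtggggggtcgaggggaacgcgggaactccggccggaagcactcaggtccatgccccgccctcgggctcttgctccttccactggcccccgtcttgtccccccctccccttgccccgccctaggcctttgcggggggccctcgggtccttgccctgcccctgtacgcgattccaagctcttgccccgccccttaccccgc
Hnrnpa3: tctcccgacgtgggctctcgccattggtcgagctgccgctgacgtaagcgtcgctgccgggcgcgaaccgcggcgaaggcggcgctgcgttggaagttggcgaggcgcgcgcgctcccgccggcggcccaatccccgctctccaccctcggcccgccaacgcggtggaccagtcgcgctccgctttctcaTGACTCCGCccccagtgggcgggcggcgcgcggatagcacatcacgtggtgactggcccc
Ttn: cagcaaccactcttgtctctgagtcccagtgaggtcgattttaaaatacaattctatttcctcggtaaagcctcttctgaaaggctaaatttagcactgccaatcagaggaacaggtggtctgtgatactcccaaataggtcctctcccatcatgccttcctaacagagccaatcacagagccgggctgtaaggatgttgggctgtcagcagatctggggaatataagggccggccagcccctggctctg
Mettl8: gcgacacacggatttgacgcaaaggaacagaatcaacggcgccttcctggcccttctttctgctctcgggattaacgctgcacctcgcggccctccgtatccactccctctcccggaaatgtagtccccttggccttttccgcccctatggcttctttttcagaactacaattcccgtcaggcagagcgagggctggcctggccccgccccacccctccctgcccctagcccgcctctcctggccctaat
Nfe2l2 and Hnrnpa3 hold the same match, TGACTCCGC, starting 240 and 60 bases before the start. Neither Ttn nor Mettl8 has a match in its window. Over the promoter windows of 250 bases before and 50 after a start, the core was found in 13 of 105 windows of the flanking genes, 12.4%, and in 12.4% of all 32851 RefSeq windows. Entries were found for 83 of the 97 genes. The 12 genes that hold the core had a median log2 fold change of -0.12 in KO against WT with all libraries and -0.08 without KO BMX-001 replicate 1. In the latter fit 10 of the 12 were negative and 0 were called. Of all 97 genes 62 were then negative and 6.19% were called, beside 1.39% of all genes tested. The median of the 97 was -0.09 with all libraries and -0.03 with 15. A match is a description of letters and not a bound site.

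KO against WT averaged over the 4 treatments asked which flanking genes differ with the genotype whatever the treatment. With all 16 libraries, 0 of the 97 genes passed an adjusted p of 0.05 in edgeR's quasi-likelihood test, where 0.178% of all 19152 genes tested did, and the smallest adjusted p was 0.0716, that of Ttn. At an unadjusted p under 0.05 stood 24 of them, 24.7%, with 8 higher and 16 lower in KO, beside 12.7% of all genes tested. Their median log2 fold change was -0.09, against 0.00 over all genes, with 32 positive and 65 negative, and their median absolute value was 0.129 against 0.117. All genes tested include non-coding genes and genes under the count minimum. Protein-coding genes that reach it had a median of -0.02 on the rest of chromosome 2 and -0.03 on other chromosomes. Their median absolute values were 0.0936 and 0.0904, and 0.0721 and 0.0700 with 15 libraries, where the 97 genes had 0.087. Without KO BMX-001 replicate 1, 6 genes passed, 6.19% of them beside 1.39% of all 19694 genes tested. Mettl8, Dync1i2, Ttn and Scn3a were higher in KO, and Pdk1 and Ifih1 were lower. In that fit 29 genes, 29.9%, stood at an unadjusted p under 0.05 (11 higher, 18 lower) beside 13.6% of all genes, while the median absolute log2 fold change was 0.087 against 0.094.

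**Figure D1:**
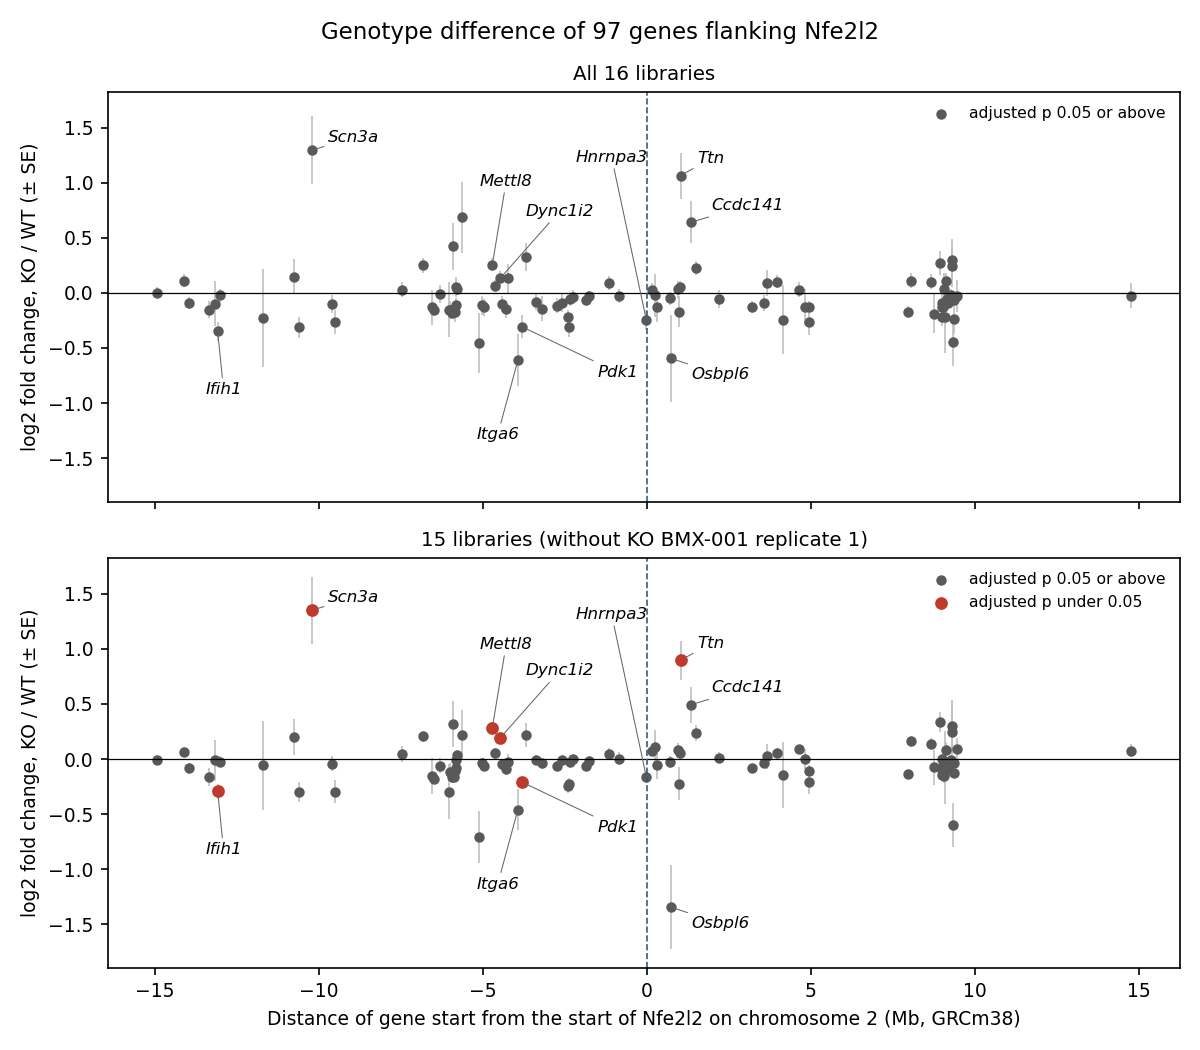
Log2 fold change of KO against WT, averaged over treatments, with its standard error (y axis) for each of the 97 genes by the distance of its start from that of Nfe2l2 (x axis, Mb, dashed line at 0), with all 16 libraries above and 15 libraries below. Red points passed an adjusted p of 0.05: none above, and 6 below, which lie on both sides of Nfe2l2 and between 1.03 Mb and 13.1 Mb from it.

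Ttn encodes titin, the giant elastic protein of the muscle sarcomere, and starts 1.03 Mb from Nfe2l2. Its level ran from 2.09 CPM through a median of 4.62 CPM to 8.63 CPM in KO, and from 1.39 CPM through a median of 2.57 CPM to 3.57 CPM in WT. Of the 8 KO libraries, PBS replicate 1 was the lowest and the deviating BMX-001 library the highest, and the genotypes overlapped. The log2 fold change was 1.06 ± 0.21 (SE, adjusted p = 0.0716) with all libraries and 0.90 ± 0.18 (adjusted p = 0.0266) with 15, both by edgeR. Within treatments it was 0.87 in PBS, 0.66 in BMX-001, 1.09 in 5-FU and 0.96 with both drugs in the 15 libraries. The level is low for its length, with 0.0333 CPM per kb of exon. The skeletal muscle genes Acta1, Ckm, Mylpf, Tnnt3 and Myh4, a list added after the data were seen, summed to between 6.43 and 12.8 CPM in KO and between 7.0 and 11.0 CPM in WT. The deviating library held the highest sum, and without it the KO range was 6.43 to 11.3 CPM. Mylpf, a myosin light chain gene, lay at 5.02 to 9.57 CPM in KO and 6.14 to 9.33 CPM in WT, Myh4 was at 0 in 4 libraries, and none of the muscle genes tested passed in either fit. The part of muscle RNA in the Ttn difference was not tested.

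The 2 genes that follow Ttn in the direction of higher coordinates also had positive log2 fold changes without passing the test. Ccdc141, a coiled-coil gene known from centrosome function, ran from 1.88 CPM through a median of 3.82 CPM to 6.16 CPM in KO and from 1.56 CPM through a median of 2.41 CPM to 3.46 CPM in WT. Its log2 fold change was 0.64 ± 0.19 (edgeR adjusted p = 0.191) with all libraries and 0.49 ± 0.16 (edgeR adjusted p = 0.167) with 15. In the 15 libraries its log2 fold change was 0.29 ± 0.31 in PBS and -0.10 ± 0.39 in BMX-001, and 0.82 ± 0.30 in 5-FU and 0.96 ± 0.30 with both drugs. The BMX-001 value rests on KO BMX-001 replicate 2 alone, at 1.88 CPM, where the replicate 1 left out held 3.78 CPM. Sestd1, a lipid-binding protein with spectrin repeats, had a log2 fold change of 0.23 ± 0.07 (edgeR adjusted p = 0.18) with all libraries and 0.24 ± 0.07 (edgeR adjusted p = 0.113) with 15. Its KO values lay between 7.78 and 10.2 CPM and its WT values between 7.11 and 8.50 CPM.

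Scn3a, which encodes a voltage-gated sodium channel subunit of neurons, starts 10.2 Mb from Nfe2l2 and was at the edge of detection. Its summed count was 374 over all libraries. KO libraries held from 0.241 CPM through a median of 1.04 CPM to 1.18 CPM, and WT libraries from 0.138 CPM through a median of 0.34 CPM to 0.669 CPM. In 7 of the 8 KO libraries it exceeded every WT library, and KO PBS replicate 2 was the exception at 0.241 CPM. The log2 fold change was 1.29 ± 0.31 (edgeR adjusted p = 0.113) with all libraries and 1.35 ± 0.30 (edgeR adjusted p = 0.0415) with 15. Gad1, an enzyme of GABA synthesis, is the third measured gene of the muscle, neuronal and channel list, and had a log2 fold change of -0.46 ± 0.27 (edgeR adjusted p = 0.495) with all libraries and -0.71 ± 0.24 (edgeR adjusted p = 0.168) with 15.

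Mettl8, a methyltransferase that modifies mitochondrial transfer RNA, had the smallest adjusted p among the 97 genes with 15 libraries. It ran from 13.5 CPM through a median of 17.5 CPM to 17.9 CPM in KO and from 13.1 CPM through a median of 13.9 CPM to 15.1 CPM in WT. The single KO library inside the WT range was the deviating one, at 13.5 CPM, and the lowest of the other KO libraries held 16 CPM. Without that library Mettl8 was the 1 flanking gene whose genotypes did not overlap, 1.03% of the 97. Of all genes tested, 0.325% then did not overlap, 0.162% in each direction. With all 16 libraries no flanking gene was without overlap, against 0.0731% of all genes higher in KO, 0.104% lower in KO and 0.178% in either direction. The log2 fold change was 0.26 ± 0.06 (edgeR adjusted p = 0.106) with all libraries and 0.28 ± 0.06 (edgeR adjusted p = 0.019) with 15. With 15 it was 0.32, 0.25, 0.27 and 0.30 in PBS, BMX-001, 5-FU and both drugs. Mettl8 and its neighbour Dcaf17, a substrate receptor of a ubiquitin ligase, share 237 of the 300 bases of their promoter windows and overlap in exons on opposite strands. Dcaf17 had a log2 fold change of 0.06 ± 0.05 (edgeR adjusted p = 0.625) with all libraries and 0.05 ± 0.05 (edgeR adjusted p = 0.741) with 15.

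Dync1i2, an intermediate chain of the dynein motor, ran from 80.2 CPM through a median of 113 CPM to 131 CPM in KO and from 94.9 CPM through a median of 101 CPM to 110 CPM in WT. Its lowest KO value was again that of the deviating library, and the next lowest was 106 CPM, within the WT range. The log2 fold change was 0.13 ± 0.07 (edgeR adjusted p = 0.429) with all libraries and 0.19 ± 0.04 (edgeR adjusted p = 0.0247) with 15. Mettl8 and Dync1i2 start at 4.71 Mb and 4.46 Mb from Nfe2l2 with Dcaf17 between them.

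Of the genes lower in KO, Pdk1 encodes a kinase that restrains pyruvate dehydrogenase, and Ifih1 encodes MDA5, a cytosolic sensor of double-stranded RNA. Pdk1 ran from 18.9 CPM through a median of 35.6 CPM to 40.3 CPM in KO and from 38.1 CPM through a median of 41.0 CPM to 49.4 CPM in WT. The lowest value was that of the deviating library, and the groups overlapped. Its log2 fold change was -0.31 ± 0.10 (edgeR adjusted p = 0.253) with all libraries and -0.21 ± 0.04 (edgeR adjusted p = 0.0277) with 15. Ifih1 ran from 29.8 CPM through a median of 40 CPM to 44.7 CPM in KO and from 44.5 CPM through a median of 49.0 CPM to 51.0 CPM in WT. Of the KO libraries, only 5-FU replicate 1, passed the lowest WT library. Its log2 fold change was -0.35 ± 0.08 (edgeR adjusted p = 0.114) with all libraries and -0.29 ± 0.07 (edgeR adjusted p = 0.0437) with 15, and in PBS, BMX-001, 5-FU and both drugs it was -0.20, -0.22, -0.33 and -0.43 with 15. Tank, which binds signalling proteins of the same antiviral pathway and lies 14.1 Mb from Nfe2l2, had a log2 fold change of 0.11 ± 0.06 (edgeR adjusted p = 0.457) with all libraries and 0.06 ± 0.05 (edgeR adjusted p = 0.596) with 15.

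**Figure D2:**
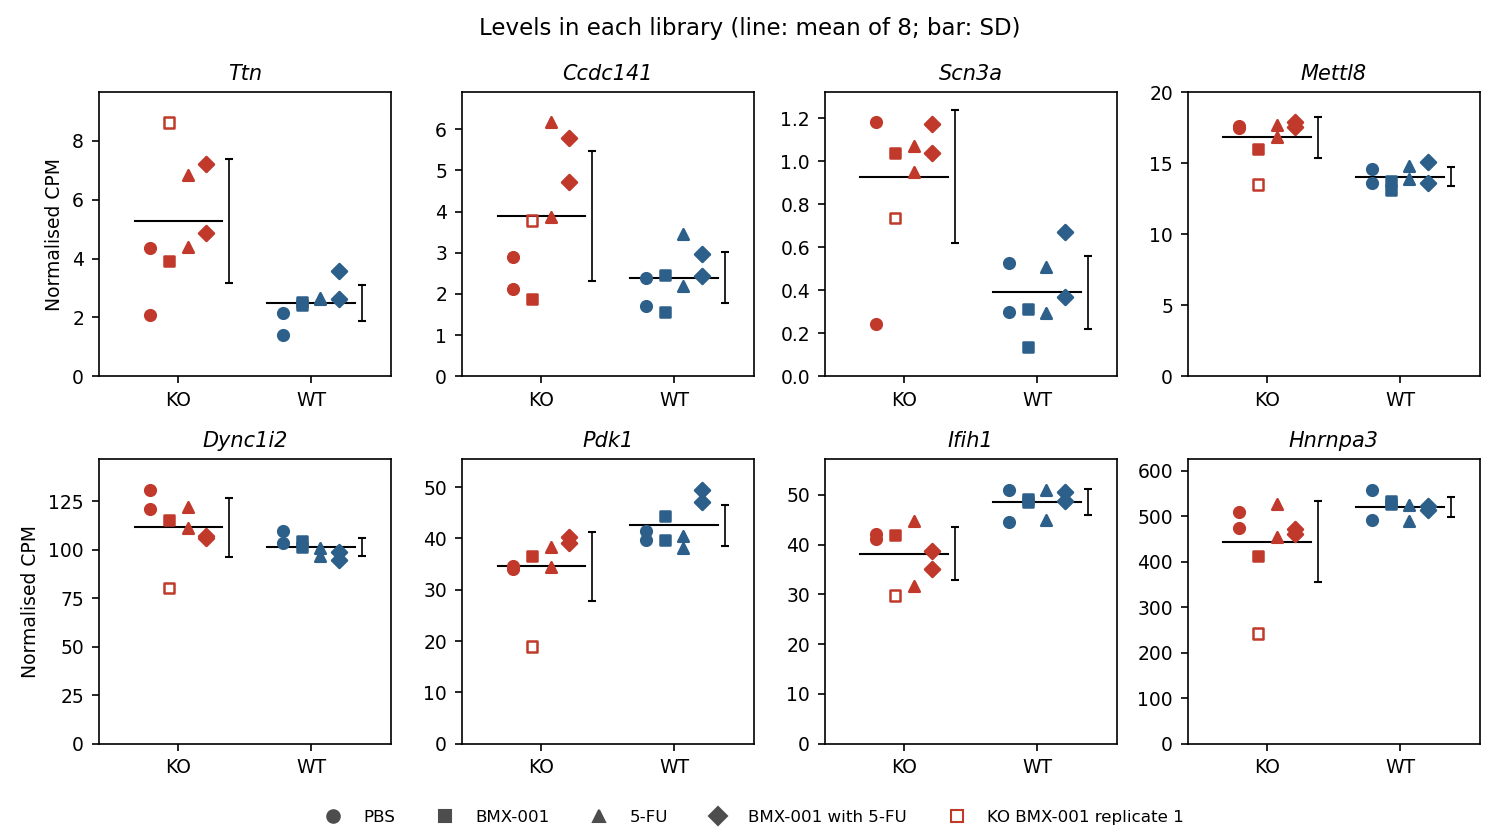
Normalised CPM (y axis, from 0) of 8 flanking genes in each of the 8 KO libraries (left, red) and 8 WT libraries (right, blue), with marker shape for the treatment, an open square for KO BMX-001 replicate 1, a line for the mean and a bar for the SD. The open square sits at the bottom of the KO group for Mettl8 (13.5 CPM), Dync1i2, Pdk1, Ifih1 and Hnrnpa3 (243 CPM) and at the top for Ttn (8.63 CPM).

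The protein-coding genes nearest to Nfe2l2 did not pass the test. A non-coding gene beside it, E030042O20Rik, did pass and is described under other observations. Hnrnpa3, an RNA-binding protein of the hnRNP family with processed copies elsewhere that may share its reads, whose start lies 0.0163 Mb from that of Nfe2l2, ran from 243 CPM through a median of 467 CPM to 528 CPM in KO and from 490 CPM through a median of 523 CPM to 558 CPM in WT. Only the deviating library lay under 412 CPM. Its log2 fold change was -0.25 ± 0.09 (edgeR adjusted p = 0.3) with all libraries and -0.16 ± 0.05 (edgeR adjusted p = 0.119) with 15. On the same side Mtx2 (mitochondrial import), Lnpk (endoplasmic reticulum shape), Atp5g3 (a subunit of ATP synthase) and Atf2 (a stress-responsive transcription factor) had log2 fold changes of -0.03, 0.09, -0.03 and -0.07 with all libraries and 0.00, 0.05, -0.02 and -0.06 with 15. On the other side Agps, which makes ether lipids, averaged 157 ± 19.1 CPM (SD) in the 8 KO libraries and 153 ± 8.83 CPM (SD) in the 8 WT libraries, with a log2 fold change of 0.03 ± 0.06 with all libraries and 0.08 ± 0.04 with 15. Ttc30b and Ttc30a1, near-identical genes of cilium transport between which reads may be divided, had -0.02 and -0.13 with all libraries and 0.11 and -0.05 with 15. Rbm45, an RNA-binding protein, had -0.05 and -0.03. Osbpl6, a sterol-binding protein with a summed count of only 187, had -0.59 ± 0.40 with all libraries and -1.34 ± 0.38 with 15 (edgeR adjusted p = 0.103).

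Grouped by function, with lists that were chosen knowing earlier results of these data, no group held a called gene with all libraries. The counts of these groups at an unadjusted p under 0.05 stand beside 12.7% of all genes tested and 24.7% of the 97 with all libraries, and beside 13.6% and 29.9% with 15. Of the 12 genes of RNA binding and processing, 1 stood higher and 5 lower at an unadjusted p under 0.05, 50% in all with 16 and with 15 libraries, with a median log2 fold change of -0.13. Those lower were Hnrnpa3, Zc3h15 (-0.17), Cir1 (-0.22), Ppig (-0.18) and Med19 (-0.22), and the one higher was Mettl8. Cir1, a corepressor, was placed on this list, and the share depends on such choices. Of the 10 genes of cell division, chromatin and the nuclear pore, 3 were lower at that level, namely Spc25 of the kinetochore (-0.15), Nup35 of the nuclear pore (-0.13) and the ubiquitin-conjugating enzyme gene Ube2e3 (-0.13), with a median of -0.13. That is 30% with 16 and with 15 libraries, a share near that of the 97 genes. The histone chaperone gene Ssrp1 had -0.24 ± 0.13 with all libraries and -0.12 ± 0.05 with 15, and the kinase gene Tlk1 -0.13 ± 0.08 and -0.06 ± 0.04. These medians stand beside 0.00 over all genes tested, and in the 15 libraries they were -0.10 and -0.09. Protein-coding genes of other chromosomes with the same count minimum had -0.03 with all libraries and -0.01 with 15.

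Of the 14 genes of innate sensing, signalling and complement, 2 were higher and 3 lower at an unadjusted p under 0.05. The higher ones were Rapgef4, an exchange factor for RAP1, at 0.33, and Sestd1. Those lower were Ifih1, Pdk1 and Dusp19, a phosphatase gene, at -0.27. The share was 35.7% with all libraries and 21.4% with 15, with a median log2 fold change of -0.05. Pdk1, the kinase of pyruvate dehydrogenase, was placed on this list and not with the metabolic genes. The shares of both lists depend on that choice. Of the 11 genes of adhesion and the cell surface, 1 was lower, 9.09% with all libraries against 27.3% with 15, both under the share of the 97 genes. It was Itga6, the integrin alpha 6 chain. It ran from 28.0 CPM through a median of 73.3 CPM to 96.7 CPM in KO and from 59.3 CPM through a median of 108 CPM to 133 CPM in WT, with a log2 fold change of -0.61 ± 0.24 (edgeR adjusted p = 0.334) with all libraries and -0.46 ± 0.19 (edgeR adjusted p = 0.343) with 15. Its lowest KO value was that of the deviating library and its lowest WT value that of WT PBS replicate 2. Itga4, the integrin alpha 4 chain that holds progenitors in the marrow and one of the flanking genes of highest count, averaged 516 ± 59.5 CPM (SD) in the 8 KO libraries and 550 ± 43.4 CPM (SD) in the 8 WT libraries.

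Of the 12 genes on the mitochondrial and metabolic list, which does not hold Pdk1, 8.33% stood at an unadjusted p under 0.05 with all libraries. With 15 it was 16.7%. With all libraries that was 1 gene, which was higher. It was Cers6, a ceramide synthase, with a log2 fold change of 0.25 ± 0.07 (edgeR adjusted p = 0.14) with all libraries and 0.21 ± 0.05 (edgeR adjusted p = 0.0585) with 15. Of the 10 genes of membrane traffic and protein folding, 1 was higher, 10% with all libraries against 20% with 15. It was Ctnnd1, the catenin p120, at 0.27 ± 0.11 (edgeR adjusted p = 0.323) with all libraries and 0.34 ± 0.09 (edgeR adjusted p = 0.0725) with 15. The shares of the metabolic list and of the traffic and folding list lie under that of the 97 genes. Ctnnd1, a catenin, was placed with traffic and folding and not with adhesion. The shares of those 2 lists depend on that choice. The eosinophil granule genes Prg2 and Prg3, which lie side by side, had log2 fold changes of 0.30 ± 0.18 and 0.24 ± 0.18 with all libraries and 0.30 ± 0.24 and 0.25 ± 0.23 with 15. Leaving out 1 library at a time moved the value of Prg2 between 0.129, without KO BMX-001 with 5-FU replicate 2, and 0.416, without replicate 1 of that group. Prg2 had the highest count of all flanking genes and ran from 835 CPM to 2820 CPM in KO and from 828 CPM to 1830 CPM in WT, and the 4 eosinophil markers, Prg2 and Prg3 among them, summed to between 1275 and 4439 CPM in KO and between 1255 and 2721 CPM in WT. The part of eosinophil numbers in these values was not tested. Of the 18 homeobox and SP factor genes listed, Sp3 was the only one above the count limit, with -0.11 ± 0.07, and all HoxD genes on the list were below it.

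By distance, the share of genes at an unadjusted p under 0.05 with all libraries was 29.5% of the 44 genes within 5 Mb, 19.5% of the 41 genes at 5 to 10 Mb and 25% of the 12 genes at 10 to 15 Mb. It was 14.5% of the 917 other protein-coding genes of chromosome 2 with the same count minimum and 12.8% of the 12139 such genes of other chromosomes. Without KO BMX-001 replicate 1 the shares were 27.3%, 34.1% and 25% in the 3 bins, 17.7% for the rest of the chromosome and 15.7% for other chromosomes. The median absolute log2 fold change was 0.126, 0.130 and 0.129 in the bins against 0.0936 and 0.0904 outside with all libraries. With 15 it was 0.0700, 0.119 and 0.0812 in the bins against 0.0721 and 0.0700 outside, and the bin nearest to Nfe2l2 had the smallest median of the 3. The 6 genes called with 15 libraries were 4, 0 and 2 by bin, while 20 of the 917 (2.18%) and 215 of the 12139 (1.77%) were called outside. The nearest bin also passed the background with both drugs against PBS in 15 libraries, as given with the drug effects.

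**Figure D3:**
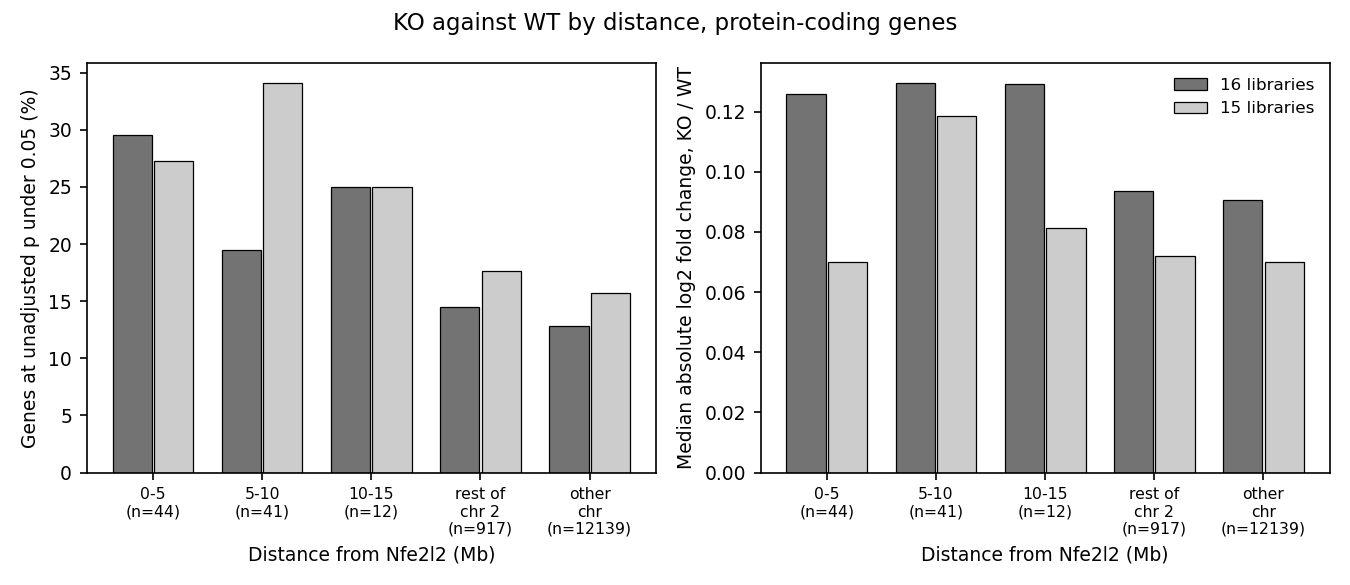
Share of protein-coding genes at an unadjusted p under 0.05 in KO against WT (left, percent) and their median absolute log2 fold change (right), by distance from Nfe2l2 in Mb, with the number of genes under each bar (dark, 16 libraries; light, 15 libraries). The shares of the 3 bins, 19.5% to 34.1%, lie above those of the rest of chromosome 2 and of other chromosomes, 12.8% to 17.7%, and do not fall steadily with distance.

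At the limit of 15 Mb, Rbms1 and Tank, just inside on the lower side, had log2 fold changes of 0.00 and 0.11. Pla2r1, the nearest outside on that side with the same count minimum, had -0.03 ± 0.22 with all libraries. It had -0.002 ± 0.19 with 15 and did not pass in either fit. Ly75, a dendritic cell receptor for endocytosis that lies just outside, had 0.43 ± 0.10 (edgeR adjusted p = 0.111) with all libraries and 0.53 ± 0.05 (edgeR adjusted p = 1.92e-05) with 15. Aplnr and Ptprj were just inside on the higher side, with -0.03 each, and Nup160 and Fnbp4 just outside. Nup160 had -0.02 with all libraries and 0.04 with 15, and Fnbp4 had 0.17 and 0.01. Neither of them passed in either fit. With a window of 10 Mb, 21 of 85 genes stood at an unadjusted p under 0.05 with all libraries, 24.7% beside 12.7% of all genes, and 0 were called. With 15 libraries 26 stood there, 30.6% beside 13.6%, and 4 were called. With a window of 20 Mb, 36 of 157 genes, 22.9%, stood there with all libraries and 45, 28.7%, with 15, beside the same 12.7% and 13.6%. In that window 1 and 9 were called. Of all genes tested, 0.178% were called with all libraries and 1.39% with 15. By count, Fign at 180 and Osbpl6 at 187 were just inside the limit, and Tbr1 at 117 and Fam171b at 111 just below it.

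The sign of the genotype difference was the same under all 4 treatments for 30 of the 97 genes with all libraries, 30.9%, with 9 positive and 21 negative. The share was 16% of all genes tested and 16.8% of the 13056 other protein-coding genes with the same count minimum. With 15 libraries it was 32 genes, 33.0%, beside 18.2% of all genes and 20.2% of those others. Mettl8, Ttn, Scn3a, Dync1i2, Pdk1 and Ifih1 were among the 32, as the fold changes by treatment show. These genes were called on the average over the same 4 treatments. Their shared sign partly follows from that choice and is not a separate test. These values are descriptions of the libraries, and neighbouring genes are not independent of each other.

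**Figure D4:**
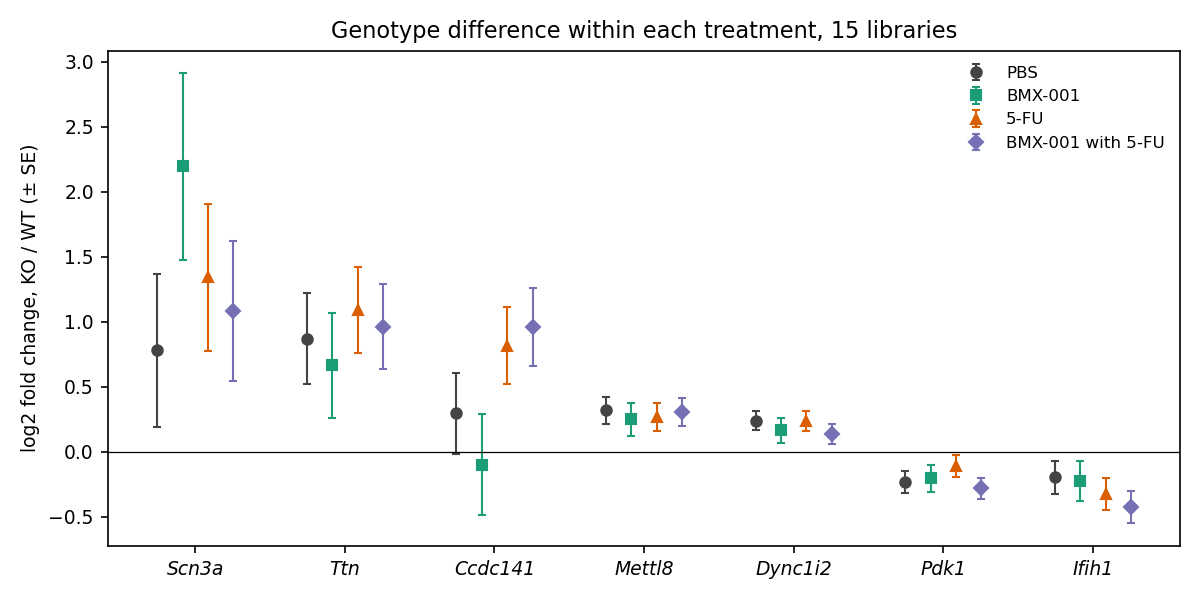
Log2 fold change of KO against WT with its standard error (y axis) within PBS, BMX-001, 5-FU and both drugs (marker shape and colour) for 7 flanking genes (x axis), in the 15 libraries. The 6 called genes, which were called on the average of these same values, keep 1 sign under all treatments. Mettl8 lies at 0.25 to 0.32, and Ccdc141 ranges from -0.10 to 0.96.

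Single treatments were compared with 2 libraries against 2, but in the 15 libraries BMX-001 has 1 KO library against 2 of WT. Within single treatments no flanking gene passed in edgeR with all libraries. The numbers at an unadjusted p under 0.05 were 5 in PBS, 28 in BMX-001, 7 in 5-FU and 9 with both drugs, or 5.15%, 28.9%, 7.22% and 9.28% of the 97, beside 4.44%, 24.2%, 6.80% and 5.06% of all genes. Of all genes tested, 0.0261%, 0.0104%, 0.0157% and 0.0157% passed the adjusted threshold in the 4 treatments. Without KO BMX-001 replicate 1, 1 flanking gene passed in PBS, where 0.102% of all genes did, and 0 in BMX-001, 5-FU and both drugs, where 0.0203%, 0.142% and 0.142% of all genes did. The gene was Cers6, with 185 and 157 CPM in KO PBS and 123 and 110 CPM in WT PBS, a log2 fold change of 0.56 ± 0.10 (edgeR adjusted p = 0.0461) with 15 libraries. At an unadjusted p under 0.05 stood 15, 12, 16 and 20 flanking genes in PBS, BMX-001, 5-FU and both drugs with 15 libraries, or 15.5%, 12.4%, 16.5% and 20.6%, beside 8.99%, 4.31%, 13.9% and 9.62% of all genes.

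Whether the genotype difference of a flanking gene varied with treatment was asked with interaction tests. With 15 libraries the one for BMX-001 also rests on 1 KO BMX-001 library. No flanking gene passed with 16 or 15 libraries in edgeR, and none of all genes tested did, 0%. With 16 libraries 13, 6 and 5 flanking genes had an unadjusted p under 0.05 for BMX-001, 5-FU and both drugs, or 13.4%, 6.19% and 5.15%, beside 11.1%, 5.69% and 3.22% of all genes. With 15 libraries it was 5, 10 and 10 genes, or 5.15%, 10.3% and 10.3%, beside 3.76%, 11.8% and 6.82%. Cers6 had the smallest p for 5-FU with 15 libraries, with an interaction of -0.58 ± 0.14 on the log2 scale (edgeR adjusted p = 0.208). Its level was 134 and 153 CPM in KO 5-FU and 139 and 152 CPM in WT 5-FU, where the groups overlapped, while in PBS they did not.

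The drug effects averaged over the genotypes show how the same genes moved in a contrast that does not involve the targeted locus. With 5-FU against PBS, 2 of the 97 genes passed, both lower, 2.06% beside 1.80% of all genes. Ube2l6, the conjugating enzyme for the interferon-induced modifier ISG15, held 571 and 577 CPM in KO 5-FU and 939 and 1039 CPM in KO PBS, and 553 and 525 CPM in WT 5-FU and 661 and 953 CPM in WT PBS. It fell by 0.68 ± 0.11 on the log2 scale (edgeR adjusted p = 0.00837). Cir1, a corepressor of the Notch pathway, fell by 0.52 ± 0.10 (edgeR adjusted p = 0.0178), with 35.8 and 30.8 CPM in KO 5-FU, 50.1 and 51.9 CPM in KO PBS, 37.4 and 38 CPM in WT 5-FU, and 42.5 and 59.3 CPM in WT PBS. In both genotypes each 5-FU library of these 2 genes lay under each PBS library. With 15 libraries 11 genes passed, 11.3% beside 10.8% of all genes, a share near the background. At an unadjusted p under 0.05 stood 17.5% of the flanking genes and of all genes with 16 libraries, and 24.7% beside 26.8% with 15.

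With both drugs against PBS 0 flanking genes passed with all libraries, where 0.762% of all genes did and 13 flanking genes, 13.4% beside 16.6% of all genes, had an unadjusted p under 0.05. With 15 libraries 14 passed, 14.4% beside 10% of all genes, and 27.8% beside 25.9% had an unadjusted p under 0.05. Among these 14, with 15 libraries, Rapgef4 was higher by 0.81 ± 0.14 (edgeR adjusted p = 0.00311), Nckap1, a subunit of the actin-regulating WAVE complex, higher by 0.52 ± 0.12 (edgeR adjusted p = 0.0179), and Cir1 lower, at -0.45 ± 0.09 (edgeR adjusted p = 0.00485). Ttn, at 0.86 ± 0.24 (edgeR adjusted p = 0.0384), and Ccdc141, at 0.73 ± 0.22 (edgeR adjusted p = 0.0415), were also higher with both drugs than in PBS. Within 5 Mb of Nfe2l2 lay 10 of the 14. That was 22.7% of the bin, beside 10% on the rest of chromosome 2 and 11.5% on other chromosomes. At an unadjusted p under 0.05 it was 34.1% beside 25.3% and 27.6%. With 5-FU and 15 libraries it was 25% beside 28.6% and 30.7%. With both drugs and all libraries it was 15.9% beside 13.8% and 16.01%. The nearest bin can thus pass the background in a contrast without genotype. With BMX-001 alone 0 flanking genes and 0% of all genes passed in edgeR with 16 or 15 libraries, and 16 and 9 flanking genes had an unadjusted p under 0.05, 16.5% and 9.28% beside 21% and 15.3% of all genes.

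Of the 97 genes, 31 share exon bases with another annotated gene, 24 of them on the opposite strand. The strand setting of the counts is not given in the sources used here, so that reads of such pairs cannot be told apart. This touches Ttn, which overlaps Gm13938, Mettl8 with Dcaf17, Cir1 with Scrn3 and Sp9, and Ssrp1 with P2rx3. Dync1i2, Pdk1, Scn3a and Ifih1 overlap no other annotated exon.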

How the data were processed

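RNA-seq counts of 16 marrow libraries were used. As deposited, they are unnormalised whole-number counts for each Ensembl gene ID, and 0 columns were left unused. Tools listed in the submitters' processing notes, without roles, are featureCounts, Salmon 1.4.0, DESeq2 1.38.3, FastQC 0.12.1, R 4.3.0 and Trim Galore 0.6.4, with the build GRCm39. Aligner, annotation release and strandedness are not given there. Symbols, gene types, distances and promoters came from GENCODE and RefSeq tables of GRCm38, matched by Ensembl ID or symbol (51880 of 57132 IDs).

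Counts were fitted in R 4.3.3 with edgeR 4.0.16 (filterByExpr, TMM, robust quasi-likelihood, 8 group means, 8 residual degrees of freedom) on all genes, and p-values were Benjamini-Hochberg adjusted over all genes of a comparison, 11 comparisons in all. DESeq2 1.42.0 was an alternative. SE is the standard error of a log2 fold change, and CPM are counts scaled by TMM library size. Duplicate libraries differed by more than counting noise in each of the 8 groups (chi-square per degree of freedom 8.09 to 130). The fit was tested on simulated data.

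The genes, lists and rules were chosen with earlier results of these data known. Candidates for naming were all called genes, the 5 nearest on each side, the 3 of highest count and those at the limits. Others were the 5 highest and 5 lowest fold changes among genes whose mean log2 CPM reached 1. Up to 5 called per other contrast and 2 to 4 of highest CPM per list were added. Of these candidates, Cobll1, Fap, Slc43a1, Wipf1, Map3k20, Ssb, Zdhhc5, Dnajc10 and Gorasp2 are not described. P2rx3, among the 5 lowest like Cobll1, is given without its fold change. Sestd1, Dcaf17, Dusp19, Zc3h15, Med19, Spc25, Nup35, Ube2e3 and the overlapping genes were named after their values were seen. Replicate numbers were not found to pair the libraries, and alternatives are in the closing section.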

Additional observations from a re-analysis of the deposited data

Results flagged for a closer look

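In 52 groups of 8 libraries the highest or lowest library was checked against the others by Dixon's criterion. It marked 12, and chance alone marks about 1 in 20 groups. KO BMX-001 replicate 1 was the library in 7 of them. In KO it was the highest for Nfe2l2, at 16.7 CPM with the next at 9.5 CPM, for Lnpk, at 45.7 CPM with the next at 38.5 CPM, and for P2rx3, a purinergic receptor gene, at 8.23 CPM with the next at 4.15 CPM. It was the lowest for Mettl8 at 13.5 CPM, Pdk1 at 18.9 CPM, Hnrnpa3 at 243 CPM and Agps at 114 CPM, where the nearest other KO libraries held 16, 34.1, 412 and 150 CPM.

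In single other libraries, Scn3a was low in KO PBS replicate 2 at 0.241 CPM, with the next at 0.736 CPM. Prg2 was high in KO BMX-001 with 5-FU replicate 2 at 2820 CPM and in WT PBS replicate 2 at 1830 CPM, with the nearest at 1580 and 1290 CPM in their genotypes. Nfe2l2 was low in WT PBS replicate 2 at 102 CPM, and Mtx2 was high in WT BMX-001 with 5-FU replicate 1 at 25.2 CPM.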

How the results depend on the processing

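With all 16 libraries 0 flanking genes were called in KO against WT, and 0 with DESeq2's size factors in edgeR. DESeq2 called 5 (5.15%, beside 1.81% of all genes in that fit), a fit without the low-count filter 12 (12.4% beside 2.57%) and an additive fit of genotype and treatment 1 (1.03% beside 0.204%). Leaving out each library in turn gave 0 to 41, with 6 without KO BMX-001 replicate 1. There were 41 without KO BMX-001 replicate 2, 42.3% beside 22.1% of all genes, where the deviating library is the lone one of its group and is assumed to vary like the others. There was 1 without KO PBS replicate 1 or 2, 1.03% beside 0.213% and 0.114%. Replicate numbers did not pair the libraries (correlations of deviations by treatment -0.15, 0.07, 0.01 and 0.17), and with the replicate number as a block 0 were called.

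Without the filter the counts were 1, 23, 1 and 4 within PBS, BMX-001, 5-FU and both drugs, or 1.03%, 23.7%, 1.03% and 4.12% of the 97 beside 0.784%, 8%, 0.609% and 0.509% of all genes. They were 5, 1 and 2 for the interactions in that drug order (5.15%, 1.03% and 2.06% beside 2.58%, 0.585% and 0.331%), and 5, 10 and 8 for the drug effects (5.15%, 10.3% and 8.25% beside 5.84%, 3.97% and 3.47%). DESeq2 called 1 within PBS and 1 within BMX-001 (1.03% each, beside 0.188% and 2.65%), and 1, 6 and 5 for the drug effects (1.03%, 6.19% and 5.15% beside 3.95%, 5.17% and 4.45%). Leaving out libraries gave 0 to 1 in PBS, 0 to 52 in BMX-001, 0 to 38 for the interaction with BMX-001, and 0 to 43, 0 to 11 and 0 to 14 for the drug effects. The highest of these, 1.03%, 53.6%, 39.2%, 44.3%, 11.3% and 14.4% of the 97, stood beside 0.102%, 43%, 31.7%, 35.1%, 10.8% and 10% of all genes, with BMX-001 replicate 1 of KO left out for PBS, 5-FU and both drugs and replicate 2 for the others. For 5-FU the 2 calls were not both kept without KO PBS replicate 1 or 2, WT PBS replicate 2, KO 5-FU replicate 2 or WT 5-FU replicate 1. They were lost without WT 5-FU replicate 2. In each of these fits the share of all genes that passed also fell. For both drugs 2 were called without WT PBS replicate 1, 2.06% beside 1.22%. The other comparisons within treatments and interactions stayed at 0 when libraries were left out.

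By distance, genes at an unadjusted p under 0.05 numbered 9 to 26, 5 to 21 and 3 to 5 in the 3 bins and 19 to 52 in all when libraries were left out, 19.6% to 53.6% beside 9.06% to 35.3% of all genes, with the highest of each without KO BMX-001 replicate 2 and 5 in the middle bin without KO PBS replicate 2, and 14 in the middle bin without the filter. The median absolute log2 fold change ranged over 0.0700 to 0.182, 0.112 to 0.175 and 0.0812 to 0.173, and was 0.101, 0.114 and 0.101 at a mean log2 CPM of at least 3, against 0.0792 for the rest of chromosome 2 and 0.0755 for other chromosomes. With 15 libraries these were 0.0590, 0.0859 and 0.0812 against 0.0584 and 0.0562, the nearest bin close to the values outside. The signs of genes near 0 turned: with libraries left out in turn, Mtx2 ran from -0.0771 to 0.00239, Atp5g3 from -0.0651 to 0.000997, Agps from -0.0301 to 0.0753 and Ttc30b, which turned without any of 6 libraries, from -0.241 to 0.107. The cause of these shifts was not tested. None of the 6 genes called with 15 libraries was called with all 16. Over the 16 fits that each left out a library, their log2 fold changes kept their signs. They ran from 0.896 to 1.17 for Ttn, 0.903 to 1.48 for Scn3a, 0.217 to 0.284 for Mettl8 and 0.0566 to 0.194 for Dync1i2. For Pdk1 they ran from -0.453 to -0.210 and for Ifih1 from -0.423 to -0.291. Low counts limit Scn3a and Osbpl6.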

Other observations

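Besides the protein-coding genes, 301 non-coding genes of the same window were in the table, 21 of them tested. Of these, 2 passed in KO against WT with 16 and with 15 libraries, beside 0.178% and 1.39% of all genes tested, and both are named because of their values. E030042O20Rik, a non-coding gene whose transcription start lies 129 bases from that of Nfe2l2 on GRCm38 and which points away from it, ran from 0.296 CPM through a median of 0.481 CPM to 1.04 CPM in KO and from 1.11 CPM through a median of 1.48 CPM to 1.57 CPM in WT. No KO library reached the lowest WT library, and the highest KO value was that of BMX-001 replicate 1. Its log2 fold change was -1.49 ± 0.18 (edgeR adjusted p = 0.00299) with all libraries and -1.56 ± 0.19 (edgeR adjusted p = 0.000386) with 15. Under PBS, BMX-001, 5-FU and both drugs it was -1.75, -0.70, -1.82 and -1.67 with all libraries.

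Mrpl23-ps1, annotated as a pseudogene and 1.08 Mb from Nfe2l2, ran from 0 through a median of 0.0907 CPM to 0.161 CPM in KO and from 0.508 CPM through a median of 0.728 CPM to 0.992 CPM in WT, again without overlap. Its log2 fold change was -3.07 ± 0.32 (edgeR adjusted p = 0.000762) with all libraries and -3.09 ± 0.34 (edgeR adjusted p = 0.000118) with 15. Its reads may be shared with its parent gene, so that the level is uncertain.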
